A study of Mus musculus with 20 samples.

Results

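Insulin-like growth factor (IGF) signalling in MC38 tumours was examined through 10 genes: the ligand gene Igf1, the receptor gene Igf1r, the adaptor genes Irs1 and Irs2, and the genes of 6 binding proteins, Igfbp2, Igfbp3, Igfbp4, Igfbp5, Igfbp6 and Igfbp7. They were taken by gene symbol from a deposited table of 23402 rows, and each symbol had 1 row. MC38 is a mouse colon adenocarcinoma line, grown here under the skin of mice. The groups were P.T.ATBx, with 10 libraries of tumours under peri-tumoral ATBx treatment, and Control, with 10 libraries of vehicle tumours. Both groups were of the same line, and the labels do not spell out ATBx or name a host strain, age, dose or schedule. Whether a separate mouse stands behind every library is not stated, and p-values therefore speak only of variation among these libraries, some of which may be technical. Values are FPKM, fragments scaled by gene length and library total, a scale on which levels of different genes can be compared.

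IGF1 and IGF2 are secreted growth factors that bind the receptor tyrosine kinase IGF1R. The activated receptor phosphorylates IRS1 and IRS2, which dock PI3-kinase and so switch on AKT and mTOR, the relay that promotes growth and survival and keeps FoxO factors out of the nucleus. IGF-binding proteins (IGFBPs) hold the ligands outside the cell, where they extend their life, keep them from the receptor or, after cleavage by proteases such as PAPP-A, release them.

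The libraries had summed FPKM from 556770 to 752782 and 15527 to 16345 rows above 0. Read totals are unknown, but the spacing of low values gave a relative depth from 0.810 to 1.29, and a two-sided permutation test between the groups gave p = 0.188. In 2 libraries, Control 1 and Control 3, the median Spearman correlation with the other libraries was low, at 0.976 and 0.966, below a limit of 0.981 set at 3 median absolute deviations, so results that rest on them are also given without them. The epithelial markers expected of a colon carcinoma differed in level. The keratin genes Krt8, Krt18 and Krt19 averaged 5.67, 6.91 and 9.50 FPKM in P.T.ATBx tumours. In Control tumours they averaged 10.8, 13.7 and 19.2 FPKM, each highest in Control 3. Epcam, Cdh1, Krt20 and Vil1 were lower. Epcam averaged 1.96 ± 0.821 FPKM in P.T.ATBx tumours and 3.70 ± 3.32 FPKM in Control tumours (SD, n = 10 each). The intestinal factor gene Cdx2 was listed at 0 in every library. The fibroblast marker Postn was also listed at 0 in every library, and the relay gene Ptpn11 in 9 of 10 P.T.ATBx and 10 of 10 Control libraries. Whether such zeros reflect absent transcripts or the quantification was not tested. The tissue also held fibroblast, macrophage and fat transcripts, such as Col3a1 at 1995 ± 275 FPKM in P.T.ATBx tumours and 1995 ± 250 FPKM in Control tumours (SD, n = 10 each). In such bulk samples fewer cells of a type and less RNA per cell cannot be told apart.

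None of the 10 genes differed between P.T.ATBx and Control tumours past the threshold. The test was limma on log2(FPKM + 1) over the 12788 rows with a mean of at least 0.5 FPKM, two-sided, with Benjamini-Hochberg adjustment over all of them and a threshold of 0.05. All 10 genes were above 0 in every library and passed the filter. The count was 0 of 10 higher and 0 of 10 lower, against 0.845% of all tested rows called in either direction, 0.461% higher and 0.383% lower. At an unadjusted p under 0.05 the count was also 0 of 10, against 13.6% of all tested rows, and a permutation test of each gene gave 0 of 10. The smallest unadjusted p was that of Irs1. In 0 of the 10 genes were the groups free of overlap, as in 0.133% of all tested rows. Of the 10 log2 fold changes 3 were positive and 7 negative, with a median of −0.04, against a median of 0.00 over all tested rows. For 8 of the 10 genes the 95% interval lay within a 1.5-fold change of FPKM + 1 in either direction, and for Igfbp5 and Igfbp2 it reached further. The lower bound of Igf1, 0.675-fold, was close to that limit. Changes of FPKM itself are larger than those of FPKM + 1, most of all in low genes.

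**Figure D1:**
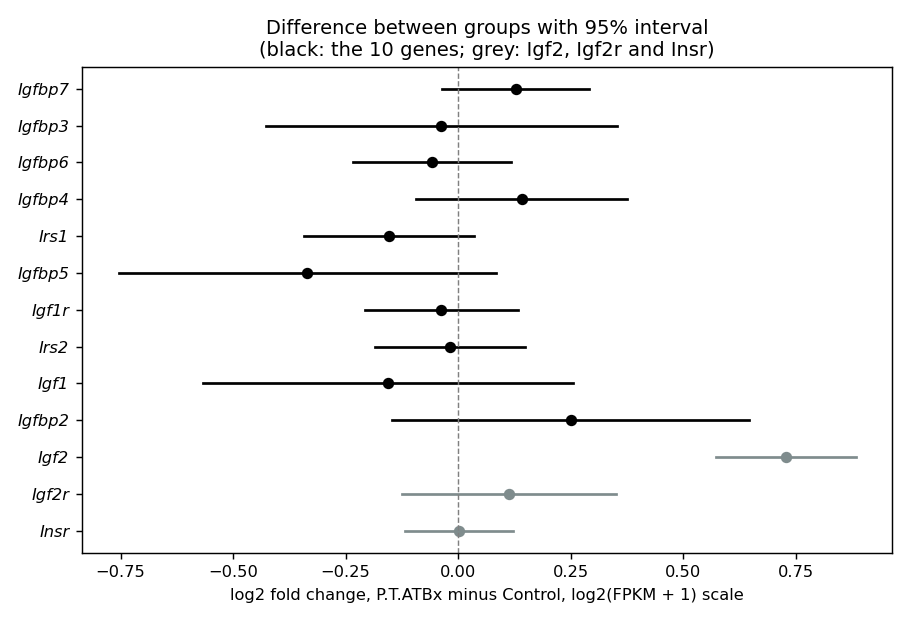
Log2 fold change (P.T.ATBx minus Control, log2(FPKM + 1) scale) with its 95% interval from limma, for the 10 genes (black) and for Igf2, Igf2r and Insr (grey). All 10 black intervals cross 0, and the interval of Igf2, from 0.57 to 0.88, does not.

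The receptor's ligand Igf1, made by liver and by many mesenchymal cells, lies on chromosome 10 (GRCm38.p6, 87858265 to 87937047, + strand). It ran from 3.18 to 7.07 FPKM with a median of 4.76 in P.T.ATBx tumours, and from 3.06 to 14.1 FPKM with a median of 5.22 in Control tumours. The groups overlapped almost throughout, and the highest value, 14.1 FPKM, was that of Control 3 alone, with the next Control library at 7.33 FPKM. On the log2 scale the difference was −0.16 (SE 0.20, 95% interval −0.57 to 0.26, adjusted p = 0.786, limma). Without Control 3 it was −0.02, and without Control 1 and Control 3 together it was 0.05. An antisense transcript, Igf1os, crosses the start of Igf1 in GENCODE M21. Since the sources used here do not give the strand setting of the counting, reads of the pair cannot be told apart.

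The second ligand gene, Igf2, had another pattern: it rose to 2.23 ± 0.260 FPKM in P.T.ATBx tumours, against 0.962 ± 0.274 FPKM in Control tumours (SD, n = 10 each), and on the log2 scale the difference was 0.73 (adjusted p = 2.83e-05, limma). The ratio of Igf1 to Igf2 FPKM was 1.52 to 3.26 in P.T.ATBx tumours and 2.70 to 28 in Control tumours, so Igf1 was the higher of the pair in all 20 libraries. The ratio of 28 was that of Control 3 alone, with Igf1 at 14.1 FPKM and Igf2 at 0.503 FPKM.

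Igf1r (chromosome 7, 67952257 to 68233668, + strand) encodes the receptor that carries the signal of both ligands. It ran from 5.21 to 7.95 FPKM with a median of 7.07 in P.T.ATBx tumours, and from 4.77 to 8.72 FPKM with a median of 6.96 in Control tumours. The ranges nearly coincided, and 6 of 10 P.T.ATBx libraries exceeded the Control median. Its log2 fold change was −0.04 (SE 0.08, 95% interval −0.21 to 0.13, adjusted p = 0.881, limma), or 0.866-fold to 1.10-fold on the FPKM + 1 scale. The insulin receptor gene Insr, whose product can pair with IGF1R in hybrid receptors, was at 8.07 ± 0.605 FPKM in P.T.ATBx tumours and 8.09 ± 0.949 FPKM in Control tumours (SD, n = 10 each, log2 fold change 0.00, adjusted p = 0.993, limma). Igf2r, which encodes the receptor that clears IGF2 to lysosomes without signalling as a kinase, was at 23.1 ± 3.86 FPKM in P.T.ATBx tumours and 21.4 ± 3.91 FPKM in Control tumours (SD, n = 10 each, log2 fold change 0.11, adjusted p = 0.717, limma).

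Irs1 (chromosome 1, 82233105 to 82291439, − strand), the adaptor with the smallest unadjusted p of the 10 genes, ran from 12.2 to 18 FPKM with a median of 13.5 in P.T.ATBx tumours, and from 10.2 to 21.5 FPKM with a median of 16.2 in Control tumours. Below the Control median lay 8 of 10 P.T.ATBx libraries, yet the lowest value of all, 10.2 FPKM, and the highest, 21.5 FPKM, were those of Control 1 and Control 3. The fitted log2 difference was −0.15 (SE 0.09, 95% interval −0.34 to 0.03, p = 0.104, adjusted p = 0.481, limma). Without Control 1 it was −0.22 (adjusted p = 0.107, limma), the nearest Irs1 came to the threshold when single libraries were left out. Without Control 1 and Control 3 it was −0.18 (adjusted p = 0.151, limma).

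Irs2 (chromosome 8, 10984681 to 11008929, − strand), the other adaptor, ran from 4.71 to 7.59 FPKM with a median of 6.05 in P.T.ATBx tumours, and from 4.42 to 7.46 FPKM with a median of 6.21 in Control tumours. The ranges nearly coincided (log2 fold change −0.02, SE 0.08, adjusted p = 0.953, limma). Irs1 stood above Irs2 in every library, with a ratio of their FPKM of 2.37 ± 0.266 in P.T.ATBx tumours and 2.62 ± 0.258 in Control tumours (SD, n = 10 each). The remaining IRS genes were low: Irs3 averaged 0.122 ± 0.137 FPKM in P.T.ATBx tumours and 0.328 ± 0.414 FPKM in Control tumours, and Irs4 0.0254 ± 0.0165 FPKM in P.T.ATBx tumours and 0.0120 ± 0.00778 FPKM in Control tumours (SD, n = 10 each).

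The binding protein genes supplied the 4 highest levels of the 10. Igfbp7 led, at a mean of 164 FPKM over the 20 libraries, followed by Igfbp3 at 87.3, Igfbp6 at 46.0, Igfbp4 at 43.0, Irs1 at 15.2, Igfbp5 at 8.54, Igf1r at 6.94, Irs2 at 6.11, Igf1 at 5.35 and Igfbp2 at 0.860 FPKM. Igfbp7 lay above Igfbp3, Igfbp4 above Irs1 and Igf1 above Igfbp2 in 20 of 20 libraries. Igfbp3 lay above Igfbp6 and Irs1 above Igfbp5 in 19 of 20. Neighbours that did not separate were Igfbp6 and Igfbp4 (in order in 14 of 20 libraries), Igfbp5 and Igf1r (12), Igf1r and Irs2 (16) and Irs2 and Igf1 (14). Together the 6 binding protein genes summed to 352 ± 28.9 FPKM in P.T.ATBx tumours and 348 ± 35.9 FPKM in Control tumours (SD, n = 10 each), and Igfbp7 made 48.5% ± 1.61 of that sum in P.T.ATBx tumours and 45.2% ± 4.68 in Control tumours (SD, n = 10 each).

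**Figure D2:**
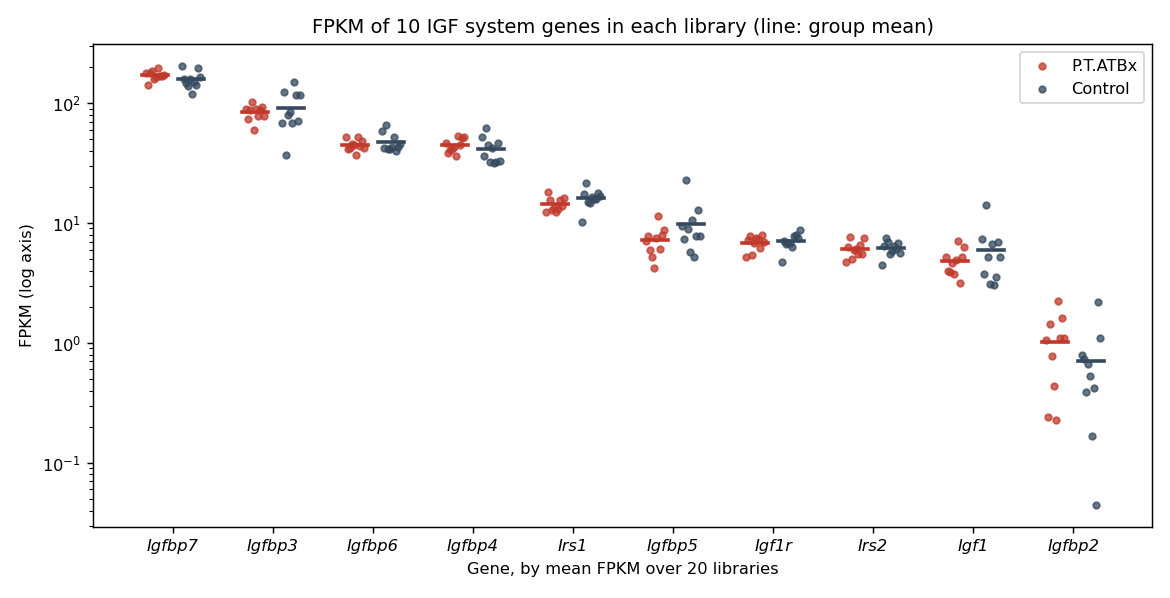
FPKM (log axis) of each of the 10 genes in every library, P.T.ATBx left of Control, with a line at each group mean; genes are ordered by their mean over 20 libraries, from Igfbp7 at 164 FPKM to Igfbp2 at 0.860 FPKM. The groups overlap in every gene, and Control 3 stands above the other Control libraries for Igf1 and Igfbp5.

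Igfbp7 (chromosome 5, 77349240 to 77408045, − strand) encodes a protein of the IGFBP superfamily that binds IGFs with low affinity and is known from vascular matrix. It ran from 142 to 195 FPKM with a median of 170.1 in P.T.ATBx tumours, and from 118 to 204 FPKM with a median of 154 in Control tumours. Of the P.T.ATBx libraries 9 of 10 exceeded the Control median, but the Control range enclosed the P.T.ATBx range. The log2 fold change was 0.13 (SE 0.08, 95% interval −0.04 to 0.29, adjusted p = 0.509, limma). Leaving out Control 6 gave 0.08, and leaving out Control 1 gave 0.17. Endothelial markers gave 2 positive and 6 negative log2 fold changes, with summed levels of 92.7 to 121 FPKM in P.T.ATBx tumours and 88.3 to 131 FPKM in Control tumours. Their mean centred log2 level had r = −0.45 with Igfbp7 in P.T.ATBx tumours (adjusted permutation p = 0.536). In Control tumours r was −0.57 (adjusted permutation p = 0.357).

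Igfbp3 (chromosome 11, 7206086 to 7215498, − strand), which encodes the main carrier of IGFs in serum and is known as a p53-induced gene, ran from 59.7 to 101 FPKM with a median of 87.5 in P.T.ATBx tumours, and from 37.0 to 149 FPKM with a median of 81.3 in Control tumours. The P.T.ATBx range lay inside the Control range, with Control 3 lowest and Control 7 highest. Its log2 fold change was −0.04 (SE 0.19, adjusted p = 0.957, limma), and 5 of the 20 fits without 1 library (Control 2, Control 7, Control 8, Control 10 and P.T.ATBx 5) turned its sign. Without Control 3 it was −0.17 (adjusted p = 0.694, limma), and without Control 1 and Control 3 it was −0.23 (adjusted p = 0.411, limma). Its neighbour on the other strand, Igfbp1, with 3539 bases between them, was listed at 0 in 10 of 10 P.T.ATBx and 8 of 10 Control libraries. Igfals, the gene of the third subunit of the serum complex, averaged 0.205 ± 0.170 FPKM in P.T.ATBx tumours and 0.559 ± 0.714 FPKM in Control tumours (SD, n = 10 each).

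Igfbp6 (chromosome 15, 102144186 to 102149512, + strand), whose product prefers IGF2 over IGF1, ran from 36.8 to 52.4 FPKM with a median of 44.3 in P.T.ATBx tumours, and from 40.1 to 65.8 FPKM with a median of 42.6 in Control tumours. The 2 libraries above the P.T.ATBx range were Control 1 and Control 3. Its log2 fold change was −0.06 (SE 0.08, adjusted p = 0.814, limma), and 0.04 without them.

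Igfbp4 (chromosome 11, 99040005 to 99052655, + strand) encodes an inhibitory binding protein that PAPP-A cleaves. It ran from 36.4 to 53.2 FPKM with a median of 43.6 in P.T.ATBx tumours, and from 31.7 to 61.7 FPKM with a median of 39.4 in Control tumours. Of the P.T.ATBx libraries 8 of 10 exceeded the Control median, while the top value, 61.7 FPKM, was again that of Control 3. The log2 fold change was 0.14 (SE 0.11, 95% interval −0.09 to 0.38, adjusted p = 0.634, limma). With the scores of skeletal muscle, keratinocyte and adipocyte markers as covariates it was 0.28 and passed the threshold (adjusted p = 0.00453, limma), the only fit of those run in which any of the 10 genes did. With the adipocyte score alone it was 0.22 (adjusted p = 0.125, limma). The PAPP-A gene was below the filter, with Pappa at 0.143 ± 0.0609 FPKM in P.T.ATBx tumours and 0.133 ± 0.0564 FPKM in Control tumours (SD, n = 10 each).

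Igfbp5 (chromosome 1, 72858065 to 72874865, − strand), whose product also binds extracellular matrix, had the largest log2 fold change of the 10 in absolute size. It ran from 4.21 to 11.5 FPKM with a median of 7.30 in P.T.ATBx tumours, and from 5.18 to 22.9 FPKM with a median of 8.40 in Control tumours. Below the Control median lay 8 of 10 P.T.ATBx libraries, and Control 3 at 22.9 FPKM stood apart from the next Control library at 12.9 FPKM. The log2 fold change was −0.33 (SE 0.20, 95% interval −0.75 to 0.08, adjusted p = 0.497, limma), and it was −0.20 without Control 3 and −0.17 without Control 1 and Control 3. Fibroblast markers gave 8 negative log2 fold changes of 9 tested, with a median of −0.13, and 1 of them, the proteoglycan gene Dcn, fell to 543 ± 39.5 FPKM in P.T.ATBx tumours, against 672 ± 40.1 FPKM in Control tumours (SD, n = 10 each, log2 fold change −0.31, adjusted p = 0.00125, limma). The mean centred log2 level of the fibroblast list had r = 0.43 with Igfbp5 in P.T.ATBx tumours (adjusted permutation p = 0.562). It was 0.59 without P.T.ATBx 5 and P.T.ATBx 7. In Control tumours r was 0.79 (adjusted permutation p = 0.0737), and 0.38 without Control 3 and Control 7. The part of fibroblast content in the Igfbp5 values was not tested beyond these correlations.

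Igfbp2 lies next to Igfbp5 (chromosome 1, 72824480 to 72852474, + strand), tail to tail with 5590 bases between them, and encodes a binding protein that also contacts integrins. It was the lowest of the 10 genes, from 0.227 to 2.22 FPKM with a median of 1.08 in P.T.ATBx tumours and from 0.0446 to 2.17 FPKM with a median of 0.597 in Control tumours. In units of its smallest value, corrected for relative depth, its values ran from 1 to 56 steps, and 14 of 20 were within 0.1 of a whole number, so the lowest libraries rest on very few fragments. The groups overlapped, with Control 6 and Control 8 below and P.T.ATBx 7 above all libraries of the other group, and 7 of 10 P.T.ATBx libraries exceeded the Control median. The log2 fold change was 0.25 (SE 0.19, 95% interval −0.15 to 0.65, adjusted p = 0.619, limma), on a scale that understates the change of so low a gene, and 0.36 without Control 9. With its neighbour Igfbp5 it correlated at r = 0.44 in P.T.ATBx tumours (adjusted permutation p = 0.535), or 0.86 without P.T.ATBx 2 and P.T.ATBx 6, and at r = 0.13 in Control tumours (adjusted permutation p = 0.952).

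The wider pathway was described through 3 lists with 54 genes, 44 of which passed the filter. In the list of other IGF system genes 1 of 8 tested members rose, Igf2, and 0 fell, with a median log2 fold change of 0.00. The next smallest p-values there were those of Igf2bp2, which encodes an RNA-binding protein of Igf2 transcripts (−0.10, adjusted p = 0.556, limma), and of the secreted protease gene Htra1 (−0.08, adjusted p = 0.597, limma), which at 309 ± 25.9 FPKM in P.T.ATBx tumours and 327 ± 30.5 FPKM in Control tumours (SD, n = 10 each) exceeded all 10 genes in level. Igfbpl1, Insrr, Pappa2 and Igf2bp1 did not pass the filter.

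In the list of adaptors and the PI3K, AKT and mTOR relay, 0 of 23 tested members rose and 0 fell, with a median of 0.01, and 14 log2 fold changes were positive. Among the smallest p-values were those of Pik3r1, the regulatory subunit of PI3-kinase (0.18, adjusted p = 0.121, limma), of Grb10, an adaptor that restrains IGF1R and the insulin receptor (0.16, adjusted p = 0.198, limma), and of Akt2 (−0.07, adjusted p = 0.455, limma). Grb10 had 51.6 ± 3.23 FPKM in P.T.ATBx tumours and 46.4 ± 4.97 FPKM in Control tumours (SD, n = 10 each). In that gene 10 of 10 P.T.ATBx libraries exceeded the Control median, although the groups overlapped.

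In the list of FoxO factors and their target genes, 0 of 13 rose and 0 fell, with a median of 0.05. Sesn1, a stress-induced inhibitor of mTOR signalling, had 18.6 ± 1.49 FPKM in P.T.ATBx tumours and 15.9 ± 1.96 FPKM in Control tumours (SD, n = 10 each). Its log2 fold change was 0.22 (SE 0.06, adjusted p = 0.0869, limma), with 10 of 10 P.T.ATBx libraries above the Control median, and it passed the threshold without Control 1 (0.25, adjusted p = 0.0207, limma), without Control 1 and Control 3 (0.21, adjusted p = 0.0185, limma) and with array weights (0.19, adjusted p = 0.0144, limma). Cited2 (0.12, adjusted p = 0.206, limma), the cell cycle inhibitor gene Cdkn1b (0.13, adjusted p = 0.312, limma) and Gadd45a (0.18, adjusted p = 0.349, limma) followed. Over the 3 lists, 8 of 44 genes had an unadjusted p under 0.05, all 8 with positive values. Over all tested rows 13.6% had such a p, 7.51% with positive and 6.08% with negative values.

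What set the 10 genes apart from each other was how they varied between libraries of the same group. Among the 500 tested rows nearest in level, the spread of Igfbp3 within groups exceeded that of 98.4%, Igfbp5 96.6%, Igf1 96.2%, Igfbp4 95% and Igfbp2 92.4%, while Igfbp7, at 75%, and Irs2, at 77.4%, were closer to the middle. The spread was larger in Control than in P.T.ATBx tumours for 8 of the 10 genes, against 59.8% of all tested rows. For Igfbp3 the SD of log2(FPKM + 1) was 0.21 in P.T.ATBx tumours and 0.58 in Control tumours, for Igf1 0.29 in P.T.ATBx tumours and 0.59 in Control tumours, and for Igfbp7 0.12 in P.T.ATBx tumours and 0.23 in Control tumours. Without Control 1 and Control 3 it was larger in Control for 6 of the 10 genes, against 34.2% of all tested rows: the SD in Control tumours was then 0.42 for Igfbp3, 0.39 for Igf1 and 0.21 for Igfbp7, each still above its P.T.ATBx value. These differences in spread were not tested.

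**Figure D3:**
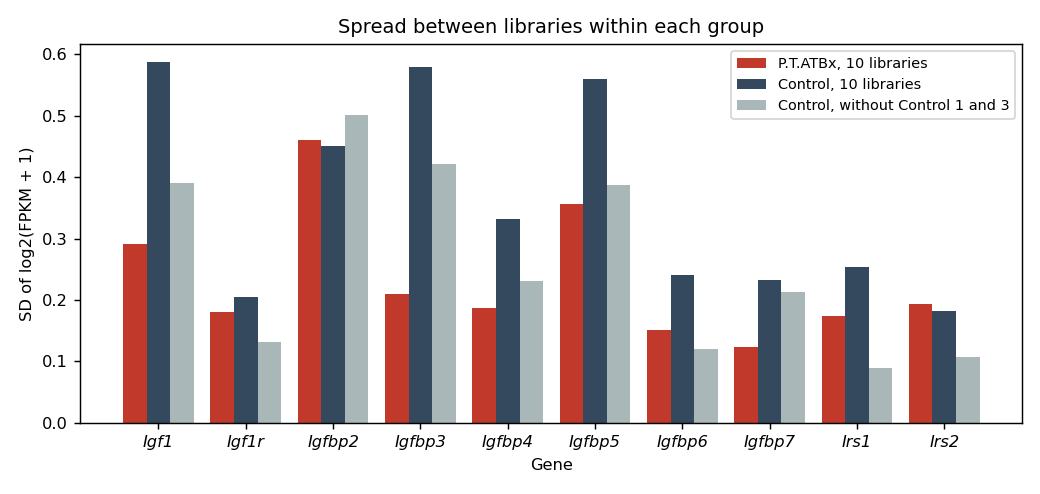
Standard deviation of log2(FPKM + 1) between libraries for each gene, in P.T.ATBx, in Control, and in Control without its 2 libraries that stand apart. Igf1, Igfbp3, Igfbp4, Igfbp5 and Igfbp7 have taller Control bars than P.T.ATBx bars with and without those 2 libraries, and for Igf1r, Igfbp2, Igfbp6 and Irs1 the order turns.

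Within groups, 6 pairs of the 10 genes passed a test of correlation, all in Control tumours. Over the 10 Control libraries Igf1, Igfbp4 and Igfbp5 were high in the same tumours, and Igfbp3 was low in them. Igf1 correlated with Igfbp5 at r = 0.95 (rho = 0.90, permutation p = 7e-05, adjusted p = 0.0063), with Igfbp4 at r = 0.92 (rho = 0.94, permutation p = 0.00035, adjusted p = 0.0158) and with Igfbp3 at r = −0.89 (rho = −0.84, permutation p = 0.00131, adjusted p = 0.0214). Igfbp4 correlated with Igfbp5 at r = 0.88 and with Igfbp3 at r = −0.89, and Igfbp3 with Igfbp5 at r = −0.88 (adjusted permutation p = 0.0183, 0.0187 and 0.0214). These were the 6 of 90 relations, 45 pairs in each group, past the adjusted threshold on Pearson's r, and 4 of the 6 passed on Spearman's rho.

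All 6 Control relations kept their sign in smaller sets of libraries. After leaving out the 2 libraries farthest from the median, r for Igf1 was 0.87 with Igfbp5, 0.84 with Igfbp4 and −0.69 with Igfbp3. Without Control 1 and Control 3 these were 0.93, 0.82 and −0.71 over 8 libraries.

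In P.T.ATBx tumours 0 of 45 pairs passed the adjusted threshold on Pearson's r or on rho. Igf1 had r = 0.76 with Igfbp5 (rho = 0.81, permutation p = 0.0101, adjusted p = 0.0894), r = 0.64 with Igfbp4 (permutation p = 0.0468, adjusted p = 0.263) and r = 0.10 with Igfbp3 (permutation p = 0.793). Igfbp3 varied less in that group. Without P.T.ATBx 2 and P.T.ATBx 5, the farthest from the Igfbp3 median, r of Igfbp3 was −0.53 with Igfbp4 and −0.78 with Igfbp5, against −0.03 and 0.13 over all 10. Without P.T.ATBx 7 and P.T.ATBx 8, the farthest from the Igf1 median, r of Igf1 with Igfbp3 was 0.37. Whether the correlations differ between the groups was not tested. Irs1 and Irs2 had r = 0.71 in P.T.ATBx tumours (adjusted permutation p = 0.157) and r = 0.84 in Control tumours (adjusted permutation p = 0.0698), and the Control value was 0.19 without Control 1 and Control 3. Igfbp2 and Igfbp7 had r = 0.78 in P.T.ATBx tumours (adjusted permutation p = 0.0784) and r = 0.76 in Control tumours (adjusted permutation p = 0.0894).

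**Figure D4:**
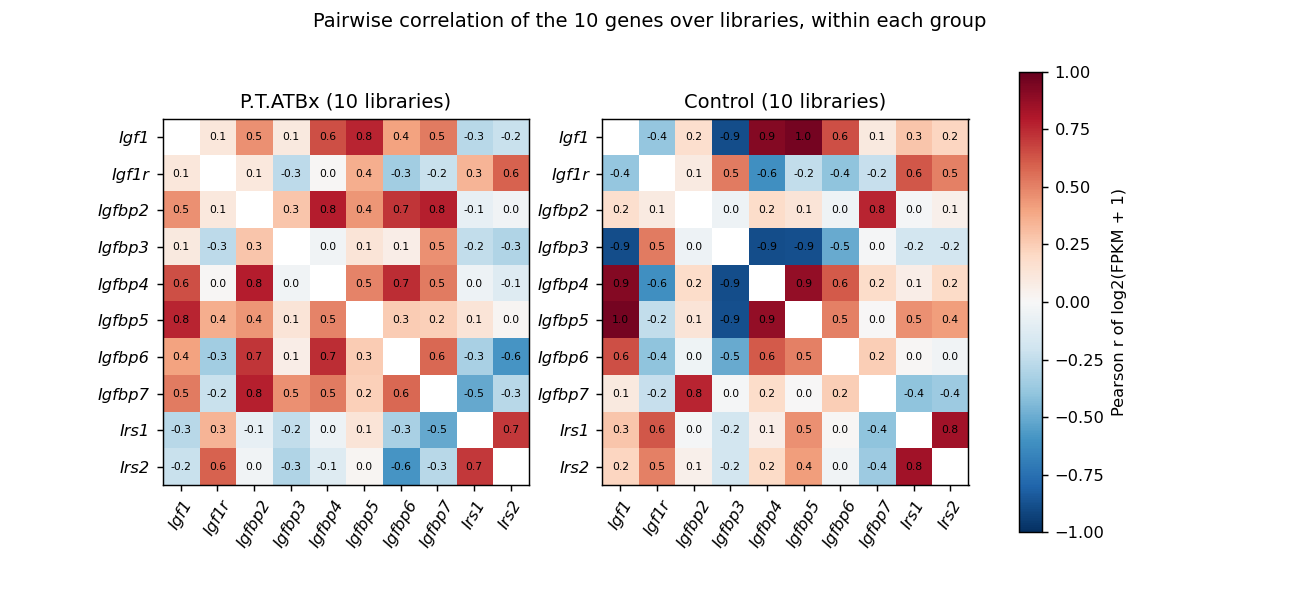
Pearson's r of log2(FPKM + 1) for the 45 pairs of the 10 genes over the 10 libraries of each group, P.T.ATBx left and Control right. In Control, Igf1, Igfbp4 and Igfbp5 form a positive block and Igfbp3 is negative against all 3; in P.T.ATBx the Igf1 and Igfbp5 pair is at 0.76 and the Igf1 and Igfbp3 pair at 0.10.

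By Pearson's r, adipocyte markers varied between libraries with Igf1 in both groups. In Control tumours they also varied with Igfbp4 and Igfbp5 and, in the opposite direction, with Igfbp3. The adipocyte list (Adipoq, Plin1, Cidec, Lep, Fabp4, Pparg, Lpl and Retn) summed to 83.1 to 472 FPKM in P.T.ATBx tumours and 60.4 to 1757 FPKM in Control tumours, highest in P.T.ATBx 7 and in Control 3. All 8 of its members were above the filter, 0 passed the threshold between the groups, and all 8 log2 fold changes were negative, with a median of −0.37. Over all tested rows 6203 of 12788 were negative. The mean centred log2 level of the list was highest among Control libraries in Control 3 (2.70) and Control 1 (1.40). Whether these fold changes stay negative without Control 1 and Control 3 was not tested. Several genes of the list are also expressed by macrophages, so Adipoq, which encodes the fat cell hormone adiponectin, was also used alone.

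Igf1 correlated with the adipocyte score, the mean centred log2 level of the list, at r = 0.89 in P.T.ATBx tumours (rho = 0.90, permutation p = 0.00078, adjusted p = 0.0196) and at r = 0.92 in Control tumours (rho = 0.89, permutation p = 0.00042, adjusted p = 0.0166). Without the 2 libraries farthest from the median these were 0.80 in P.T.ATBx tumours and 0.85 in Control tumours. With Adipoq alone they were 0.89 in P.T.ATBx tumours and 0.87 in Control tumours (adjusted permutation p = 0.0062 for both).

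Igfbp5 had r = 0.80 with the adipocyte score in P.T.ATBx tumours (adjusted permutation p = 0.0562) and r = 0.86 in Control tumours (adjusted permutation p = 0.0196). In Control tumours its rho of 0.77 did not pass (adjusted permutation p = 0.123). Igfbp4 had r = 0.47 in P.T.ATBx tumours (adjusted permutation p = 0.528), which was −0.03 without the 2 farthest libraries, and r = 0.94 in Control tumours (adjusted permutation p = 0.0166), which was 0.88 without Control 1 and Control 3. Igfbp3 had r = 0.06 in P.T.ATBx tumours (adjusted permutation p = 0.961), which was −0.45 without P.T.ATBx 2 and P.T.ATBx 5. In Control tumours its r was −0.84 (adjusted permutation p = 0.039), and −0.64 without Control 1 and Control 3. Over all Control libraries the rho of Igfbp3, −0.76, did not pass (adjusted permutation p = 0.124). Of 180 relations of the 10 genes with 9 marker lists in both groups, 13 passed on Pearson's r, 3 in P.T.ATBx tumours and 10 in Control tumours. On rho 10 passed, 2 in P.T.ATBx tumours and 8 in Control tumours. The relation of Igfbp4 that passed in P.T.ATBx tumours was with the keratinocyte score (r = 0.81, rho = 0.78, adjusted permutation p = 0.038 for r and 0.121 for rho), and r was 0.76 in Control tumours (rho = 0.90, adjusted permutation p = 0.131 for r and 0.022 for rho).

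Other scores moved with the adipocyte score. The epithelial list (Epcam, Cdh1, Krt8, Krt18, Krt19, Krt20, Cdx2 and Vil1, 5 tested) moved with it at r = 0.91 in P.T.ATBx tumours (permutation p = 0.00026) and r = 0.96 in Control tumours (permutation p = 4e-05). The keratinocyte score had r = 0.57 with the adipocyte score in P.T.ATBx tumours (permutation p = 0.0773) and r = 0.72 in Control tumours (permutation p = 0.0219). Igf1 had r = 0.64 with the keratinocyte score in P.T.ATBx tumours (adjusted permutation p = 0.239) and r = 0.80 in Control tumours (rho = 0.94, adjusted permutation p = 0.0562 for r and 0.022 for rho). Igf1 had r = 0.90 with the epithelial score in P.T.ATBx tumours (adjusted permutation p = 0.0166) and r = 0.88 in Control tumours (adjusted permutation p = 0.0192). In Control tumours Igfbp4 had r = 0.91 with the epithelial score (adjusted permutation p = 0.0166 for r and 0.022 for rho). Igfbp5 had r = 0.83 there (adjusted permutation p = 0.039 for r and 0.0827 for rho). In P.T.ATBx tumours Igfbp4 (r = 0.58) and Igfbp5 (r = 0.69) did not pass with it (adjusted permutation p = 0.332 and 0.197). In Control tumours the pericyte and smooth muscle score also passed on Pearson's r with Igf1 (r = 0.87), Igfbp4 (r = 0.80) and Igfbp5 (r = 0.92, adjusted permutation p = 0.0196, 0.0464 and 0.0166). On rho its relation with Igfbp5 did not pass (adjusted permutation p = 0.0827). Macrophages are another known source of Igf1, and their score had r = 0.25 with it in P.T.ATBx tumours (adjusted permutation p = 0.811) and r = −0.02 in Control tumours (adjusted permutation p = 0.988). The part of fat, skin or epithelial content in the levels of these genes was not tested beyond the fits with marker scores.

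**Figure D5:**
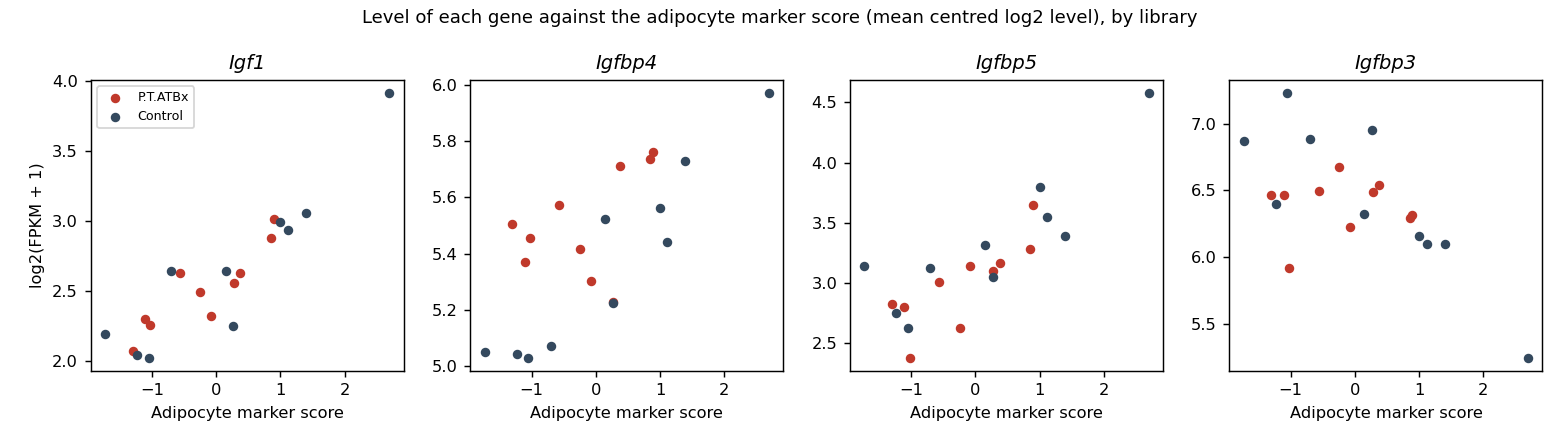
Log2(FPKM + 1) of Igf1, Igfbp4, Igfbp5 and Igfbp3 against the adipocyte marker score in each library, P.T.ATBx in red and Control in dark blue. Igf1 and Igfbp5 climb with the score in both groups, Igfbp4 climbs and Igfbp3 declines mainly in Control, and Control 3 is the point at the far right.

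The upstream sequences of Igfbp4 and Igfbp5, which were high in the same Control tumours, and of Igfbp3, which was low in them, are shown so that the 3 can be compared. Each is the stretch before a RefSeq start (GRCm38.p6) that lies in no GENCODE M21 exon, written along the gene's strand, at chr11:99040994-99041243 (+), chr1:72874885-72875115 (−) and chr11:7213924-7214173 (−). The Igfbp4 and Igfbp3 stretches fall inside the RefSeq spans given above, before a start that lies downstream of the first. The Igf1 window was left out because it lies within annotated exons. Capitals mark a TATA box.
Igfbp4: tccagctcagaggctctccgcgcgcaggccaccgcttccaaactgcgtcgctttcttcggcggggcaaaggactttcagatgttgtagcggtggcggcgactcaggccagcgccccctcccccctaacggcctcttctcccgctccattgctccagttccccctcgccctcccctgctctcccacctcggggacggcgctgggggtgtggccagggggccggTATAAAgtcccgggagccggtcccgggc
Igfbp5: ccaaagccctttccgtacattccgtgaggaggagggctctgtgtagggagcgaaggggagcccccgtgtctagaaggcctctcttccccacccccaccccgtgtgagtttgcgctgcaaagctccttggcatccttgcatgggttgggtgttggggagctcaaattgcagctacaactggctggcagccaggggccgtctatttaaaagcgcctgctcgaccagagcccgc
Igfbp3: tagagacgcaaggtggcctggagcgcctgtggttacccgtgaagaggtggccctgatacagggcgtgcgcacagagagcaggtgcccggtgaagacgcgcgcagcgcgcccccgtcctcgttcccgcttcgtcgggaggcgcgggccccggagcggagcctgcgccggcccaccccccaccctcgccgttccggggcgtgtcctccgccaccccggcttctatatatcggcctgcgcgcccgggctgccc
Both strands were searched for the TATA box, spelled TATAAA, for the CCAAT box by those letters, for the Sp1-type GC box, spelled GGGCGG, and for the AP-1 site, spelled TGANTCA. No match overlapped another here. Igfbp4 held 1 TATA box, found in 12.4% of 32851 RefSeq windows of 250 bases, and these letters were not in the windows of Igfbp5 and Igfbp3. The letters of the other motifs, present in 33.8% (CCAAT), 32.7% (GC) and 6.75% (AP-1) of all windows, were in none of the 3. A match in letters is not a site, and none of the exact spellings searched was in all 3 windows. Looser forms of these motifs, such as other AT-rich TATA-like stretches, were not searched.

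The genes most like each of the 10 over the 20 libraries were found by Pearson's r of log2(FPKM + 1) after the group means were removed, as a description. For Igf1 they were Adhfe1, Orm1 and Abcd2, each at r = 0.94. For Igfbp4 they were Srpx (r = 0.95), Adam23 (r = 0.95) and Bmper (r = 0.94), and for Igfbp5 Bicc1 (r = 0.94), Lama2 (r = 0.93) and Serpina3c (r = 0.91). For Igfbp3 they were Narf (r = 0.92), Cpe (r = 0.88) and Edil3 (r = 0.88), with r of 0.75, 0.72 and 0.66 within P.T.ATBx tumours and of 0.97, 0.91 and 0.91 within Control tumours.

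Igf1r was most like the genes Nf1 (r = 0.96), Baz2a (r = 0.95) and Ep400 (r = 0.95). Irs1 was most like Thbs1 (r = 0.96), Kif1c (r = 0.92) and Itsn1 (r = 0.91), and Irs2 most like Dab2ip (r = 0.89), Emc1 (r = 0.88) and Epb4.1l1 (r = 0.88). Likeness was weaker for Igfbp2, led by Plxdc2 (r = 0.84), for Igfbp6, with Slc39a1 at r = 0.82, and for Igfbp7, led by Nmnat3 (r = 0.84). None of the 30 genes found by this search passed the threshold between P.T.ATBx and Control tumours, with the smallest adjusted p at 0.0913 for Plxdc2 (limma).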

How the data were processed

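RNA of 20 MC38 tumour libraries was measured. Per the labels' protocols, libraries were built from total RNA with a stranded kit. The authors deposited FPKM per gene and library; the build was mm10, per the submitters' processing notes, while for the aligner, the quantification tool, the annotation and scaling between libraries, the answer is not given in the sources used here. FPKM is no count, so no count test was run.

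Each library was assigned by its title. Of 23402 rows, those with a mean of at least 0.5 FPKM were tested as log2(FPKM + 1) in limma 3.58.1 (R 4.3.3; group as the only term, robust and trended moderation). Permutation tests were two-sided with 100000 resamples (numpy 2.4.6). For a marker score, log2(FPKM + 1) was centred gene by gene and averaged over the list's tested genes. Correlations were adjusted by Benjamini-Hochberg over each family. The scripts were tested on simulated data.

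The 10 genes, the gene lists and the tests were chosen with earlier results of these data known. Named are the 10 genes; pathway genes past the threshold and the 4 with the smallest p per list; Igf2, Igf2r, Insr and Igfbp1; and the 3 most like genes (mean of at least 1 FPKM, no predicted genes or pseudogenes). Other genes were named after their values were seen. Some genes that this rule selects are not reported here. Coordinates, upstream sequences and gene names come from RefSeq (GRCm38.p6, the assembly of mm10), in which all 10 genes matched.

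Alternatives were another pseudocount, other filters, scalings, moderation and weights, the replicate number as a block, marker covariates and fits without libraries.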

Additional observations from a re-analysis of the deposited data

Results flagged for a closer look

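In 3 of the 20 groups of 10 FPKM values tested (10 genes in 2 groups), 1 library lay far from the rest by Dixon's 95% criterion. It compares the gap to the nearest value with the group's range. By chance it marks about 1 in 20 groups if values are normally distributed, which was not tested for these FPKM values. Igf1 in Control 3 was at 14.1 FPKM, against 7.33 for the next Control library (gap 0.613 of the range). Igfbp5 in Control 3 was at 22.9 FPKM, against 12.9 for the next (0.563). Igfbp2 in Control 9 was at 2.17 FPKM, against 1.09 for the next (0.509). Control 3 also had the highest summed adipocyte markers, at 1757 FPKM.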

How the results depend on the processing

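Over all tested rows 108 were called, 59 higher and 49 lower; rescaling to 1 sum per library (TPM scale) gave 49, 20 higher and 29 lower, so that 40.8% in place of 54.6% were higher. Array weights gave 306, 154 higher and 152 lower. With marker scores as covariates the share of higher calls was 44.3% of 149. Leaving out 1 library gave 69 to 193, the lowest without P.T.ATBx 4 and the highest without Control 1. Of the 10 genes, 0 were called in all fits run except that with 3 marker scores, which called 1, Igfbp4. Pathway genes called, 1 in all libraries, were 2 with array weights and without Control 1 and Control 3, and 1 to 2 on leaving out 1 library. Signs near 0 turned. With array weights Igf1 was at 0.0119, Igfbp6 at 0.0193 and Irs2 at 0.0104. Without Control 1 and Control 3, Igf1 was at 0.0489 and Igfbp6 at 0.0423, and with marker scores Igfbp6 was at 0.0157. On leaving out 1 library Igfbp3 ran from −0.169 to 0.0515 and Irs2 from −0.0612 to 0.0152. The cause was not tested. Covariate fits with single marker scores were chosen after seeing the data and called 0 of the 10 genes.

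With the replicate number as a block, 124 rows were called, 81 of them shared with the 108, and 0 of the 10 genes. Deviations of same-numbered libraries correlated from −0.31 to 0.39, over 0.1 in 5 of 10 pairs, and 4 of 10 P.T.ATBx libraries correlated best with their own number. Since not every pair was over 0.1, the numbers were not taken to pair the samples. That rule is strict, and failing it does not exclude a pairing. Depth limits the precision of Igfbp2, the lowest of the 10 genes.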
